A study of Mus musculus with 18 samples.

Results

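Choroid plexus genes are a set of 10 genes, Ttr, Kcnj13, Mfrp, Folr1, Clic6, Kl, Enpp2, Cldn2, Slc4a5 and Otx2, taken by name from the 55269 genes of a mouse substantia nigra RNA-seq table. All 10 were present and all 10 passed the filter on low values, which needed at least 10 normalised reads in at least 6 of the 18 libraries and left 19442 genes. The genes were chosen by values measured in these same libraries, among them the large falls of Mfrp and Kcnj13 in AAV-SIRT3 against intact. Their levels and fold changes are therefore given as a description and are not counted as evidence for any difference.

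The study sequenced poly-A RNA of wild-type mice, 6 in each of 3 groups, from the substantia nigra, where midbrain dopamine neurons lie. Intact mice carried no virus that the labels name, AAV-GFP mice overexpressed green fluorescent protein from an adeno-associated virus, and AAV-SIRT3 mice overexpressed the mitochondrial deacetylase SIRT3. All groups were 3 months old at collection, and the virus had been given about a month earlier. The promoter and serotype of the viruses are not given in the sources used here.

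The choroid plexus is a fringe of epithelium and vessels that hangs in the brain ventricles and secretes cerebrospinal fluid. Its epithelial cells, unlike the ependymal cells that line the ventricle wall, move ions and folate across a leaky tight junction and release carrier proteins, chief among them transthyretin. The substantia nigra itself holds no choroid plexus, and Otx2, the homeobox factor that marks these cells, is also used by some midbrain and thalamic cells.

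Promoter sequences show where the epithelial genes Mfrp, Kcnj13 and Cldn2 begin and which core elements lie there. They come from RefSeq (GRCm38.p6), which had entries for 6 of the 10 genes, namely Kcnj13, Slc4a5, Mfrp, Kl, Cldn2 and Otx2. Each run below lies upstream of the first annotated base of its gene, reads 5′ to 3′ on the gene's strand, and has a motif in capitals. In Mfrp (chr9:44101520-44101728, plus strand) the capitals mark the reverse complement of TAATCC, the core letters bound by OTX2, 134 bases before the RefSeq start. In Kcnj13 (chr1:87394730-87394979, minus strand) and Cldn2 (chrX:139800558-139800807, plus strand) they mark TATAAA, the TATA box letters, 29 and 35 bases before it.
Mfrp: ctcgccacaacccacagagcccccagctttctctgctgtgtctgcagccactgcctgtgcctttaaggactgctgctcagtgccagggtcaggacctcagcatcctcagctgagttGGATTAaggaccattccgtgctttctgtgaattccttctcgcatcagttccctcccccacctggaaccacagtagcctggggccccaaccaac
Kcnj13: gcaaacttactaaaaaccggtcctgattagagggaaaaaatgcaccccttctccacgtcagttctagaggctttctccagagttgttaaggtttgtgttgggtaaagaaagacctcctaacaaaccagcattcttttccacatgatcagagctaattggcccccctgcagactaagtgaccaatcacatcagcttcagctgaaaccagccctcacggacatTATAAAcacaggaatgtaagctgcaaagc
Cldn2: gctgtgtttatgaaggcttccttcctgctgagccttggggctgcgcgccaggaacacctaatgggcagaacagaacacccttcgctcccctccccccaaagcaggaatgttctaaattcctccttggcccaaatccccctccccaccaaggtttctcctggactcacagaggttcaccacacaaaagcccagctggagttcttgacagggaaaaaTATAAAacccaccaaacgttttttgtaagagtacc

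Over 32851 RefSeq promoter windows searched on both strands, 7.06% held TAATCC and 13.6% held TATAAA. The first and the reverse complement of the second can share 2 bases. TAATCC was in 2 of the 9 windows of the 6 matched genes, 1 of Mfrp and 1 of Otx2, and TATAAA in 4 of the 9. Of the 47 windows of 35 matched genes on a longer list of choroid plexus genes, 2 held TAATCC and 5 held TATAAA. One of these 2, at C1qtnf5, is the same site as that of Mfrp. A match is a description of letters and not a binding site.

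Depth ran from 47.2 to 64.7 M reads (megareads) assigned to genes per library, and mitochondrially encoded genes took 7.13% to 8.59% of them. Sirt3, the gene the virus carries, ranged from 1733 to 1920 normalised reads in intact, from 1684 to 1936 in AAV-GFP and from 1801 to 2041 in AAV-SIRT3 libraries, so its ranges overlapped. Each library is named below by its group and the replicate number in its title. A difference between libraries can come from fewer cells of a type or from less RNA per cell, and bulk data cannot tell these apart. Libraries intact 2 and AAV-GFP 5 were the 2 highest in all 10 genes and far above the others in most, so each comparison is given with and without them. Their depths were 60.02 and 53.2 M reads, inside the range of the others.

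Ttr encodes transthyretin, the carrier of thyroxine and of retinol-binding protein that choroid plexus epithelium secretes in bulk. It was 4783, 44471, 462, 1111, 418 and 466.5 normalised reads in intact libraries 1 to 6. The AAV-GFP libraries held 702, 555, 1117, 229.8, 39158 and 591, and the AAV-SIRT3 libraries 188, 414.5, 305, 480.2, 1300 and 1144. Intact 2 was 95.3 times the median of the other 5 intact libraries, and AAV-GFP 5 was 66.2 times the median of the other 5 of its group. These 2 libraries held 45.4% and 40.0% of all Ttr signal of the 18 libraries. Intact 1 came next with 4783, and the remaining libraries of the 3 groups overlapped.

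Kcnj13 encodes Kir7.1, an inwardly rectifying potassium channel of the apical epithelial membrane. The gene (chromosome 1, 87386363 to 87394729) sits inside Gigyf2 on the opposite strand. The TATA box letters shown above lie 29 bases before its RefSeq start. Its values were 54.9, 221, 49.8, 65.9, 87.9 and 68.9 in intact libraries. They were 61.4, 83.9, 57.8, 20.4, 228 and 15.7 in AAV-GFP and 59.1, 19.3, 21.0, 3.97, 20.4 and 66.4 in AAV-SIRT3 libraries. AAV-GFP 5 and intact 2 were again the 2 highest, by 3.95 and 3.35 times their groups' other medians. Below them the AAV-SIRT3 libraries formed 2 levels, 59.1 and 66.4 in 2 libraries and at most 21.0 in the other 4. The AAV-GFP libraries did so too, with 57.8 to 83.9 in AAV-GFP 1 to 3 and 20.4 and 15.7 in AAV-GFP 4 and 6. The value in AAV-SIRT3 4 rests on 4 reads, so counting error alone is large there.

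Clic6, a chloride intracellular channel protein, ran from 379 to 1507 in intact, 254 to 1404 in AAV-GFP and 242 to 589 in AAV-SIRT3 libraries, with medians of 454, 351.5 and 350.7. Intact 2 was 3.58 times and AAV-GFP 5 was 4.16 times the median of its group's other libraries. Slc4a5, a sodium bicarbonate cotransporter (chromosome 6, 83219828 to 83304945), had medians of 43.3, 36.9 and 40.1, and stood at 452 in intact 2 and 364 in AAV-GFP 5. Its next highest library was intact 1 with 124, and the other 15 were all at or below 51.4.

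Mfrp encodes a frizzled-related membrane protein best known from retinal pigment epithelium. It spans chromosome 9 from 44101729 to 44109187. C1qtnf5 overlaps the last part of that stretch, from 44107245 to 44109187, and has the same RefSeq promoter window. C1qtnf5 is listed at 0 in all 18 libraries, so reads of the pair may have been assigned unevenly. The strand setting of the read counting is not given in the sources used here, and Rnf26 and Gm49380 overlap Mfrp on the opposite strand. Mfrp was 83.3, 450.5, 12.7, 39.0, 19.4 and 26.1 in intact libraries. It was 17.98, 15.5, 14.7, 11.9, 370.5 and 18.7 in AAV-GFP and 3.81, 11.03, 8.58, 3.97, 15.1 and 21.4 in AAV-SIRT3 libraries. Intact 2 and AAV-GFP 5 were 17.3 and 23.9 times their groups' other medians, and AAV-SIRT3 held the 4 lowest of the 18 values. Intact and AAV-SIRT3 ranges still overlapped between 12.7 and 21.4.

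Folr1, the folate receptor that carries folate into cerebrospinal fluid, spans chromosome 7 from 101858331 to 101870788 and overlaps Anapc15 on the opposite strand. It ran from 20.5 to 371 in intact, 19.6 to 296 in AAV-GFP and 14.7 to 31.5 in AAV-SIRT3 libraries, with medians of 33.2, 36.0 and 25.8. Intact 2 was 11.5 times and AAV-GFP 5 was 8.54 times the other median of its group, while without them the groups overlapped.

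Kl encodes klotho, a co-receptor for the hormone FGF23 (chromosome 5, 150952607 to 150993817). Its values were 414.5, 2441, 347, 509.5, 593 and 404 in intact, 319, 312, 281, 259, 2290 and 312 in AAV-GFP and 349.5, 221, 194, 281, 352 and 277 in AAV-SIRT3 libraries. Intact 2 was 5.89 times and AAV-GFP 5 was 7.34 times the other median of its group. The other 5 AAV-GFP libraries, at 319 or below, lay under all 6 intact libraries, whose lowest was 347. AAV-SIRT3 overlapped intact only through its 2 highest libraries.

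Enpp2 encodes autotaxin, the secreted enzyme that makes lysophosphatidic acid, and oligodendrocytes also make it (chromosome 15, 54838901 to 54952892). It was 52523 in intact 2 and 48085 in AAV-GFP 5, but its level elsewhere was already 23292 to 32978, so the 2 libraries were only 1.99 and 1.85 times their groups' other medians. Mbp, the myelin basic protein of oligodendrocytes, was 347320 in intact 2 and 406359 in AAV-GFP 5 against 357995 to 467731 elsewhere. The part of oligodendrocytes in the Enpp2 values was not tested.

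Cldn2, the pore-forming claudin of the leaky epithelial junction, begins on the X chromosome at the promoter shown above. It was 59.5, 438, 46.9, 46.0, 47.9 and 17.7 in intact, 14.8, 17.3, 22.7, 5.96, 370.5 and 23.6 in AAV-GFP and 41.0, 33.1, 32.4, 7.94, 29.0 and 32.6 in AAV-SIRT3 libraries. Intact 2 was 9.34 times and AAV-GFP 5 was 21.4 times the other median of its group. In contrast to Mfrp, the 5 remaining AAV-GFP libraries sat low, from 5.96 to 23.6, a range that otherwise held AAV-SIRT3 4 and intact 6.

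Otx2, which spans chromosome 14 from 48657677 to 48673819 with Otx2os1 on the opposite strand, varied within a narrow range. It was 260, 526, 265, 299.7, 346 and 359 in intact libraries, with 321.5 to 611 in AAV-GFP and 332 to 521 in AAV-SIRT3. AAV-GFP 5 and intact 2 were again highest, at 1.76 and 1.75 times their groups' other medians, but AAV-SIRT3 5 reached 521, only just below intact 2.

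**Figure D1:**
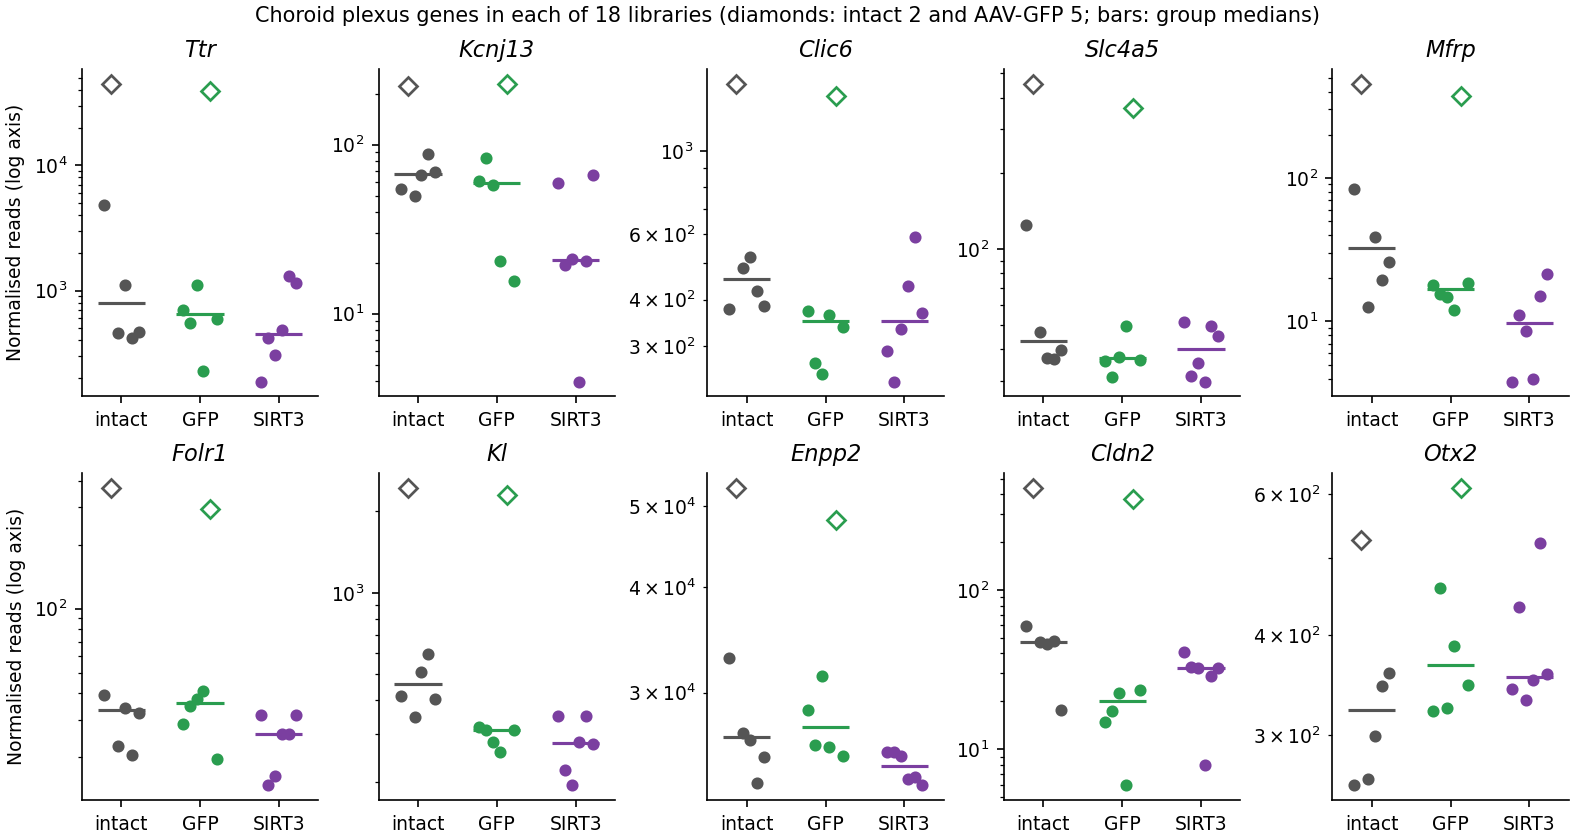
Normalised reads of the 10 genes in each library (log axis), with intact, AAV-GFP and AAV-SIRT3 libraries side by side; diamonds are intact 2 and AAV-GFP 5 and bars are group medians. In all 10 panels both diamonds lie above the other 16 libraries, from 1.75 times the median of the other libraries of the group for Otx2 in intact 2 to 95.3 times for Ttr.

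All 10 genes had intact 2 and AAV-GFP 5 as their 2 highest libraries. Since the genes were chosen by these values, that count is only a description. Over all 19442 genes tested, 195 (1.00%) had those 2 libraries on top. The median pair of libraries was on top for 96 genes, and 23 of the 153 pairs were on top for more genes than this one. The sum of the 10 genes was 103400 in intact 2, 93177 in AAV-GFP 5 and 25336 to 39176 elsewhere. Ttr made up 43.0% and 42.0% of that sum in the 2 libraries and at most 12.2% in the others.

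Divided by exon length, the excess over the other libraries of the group was of like size in both. Ttr had the largest excess with 37103 normalised reads per kb in intact 2 and 32518 in AAV-GFP 5, and Enpp2 followed with 4531 and 3816. Clic6 (277 and 272) and Kl (217 and 212) came next on this scale of excess per kb. Kcnj13, Folr1, Cldn2, Mfrp and Slc4a5 lay between 56.5 and 147, and Otx2 held the lowest excess in intact 2 with 53.6. The ratio of the level in intact 2 to that in AAV-GFP 5 ran from 0.86 for Otx2 to 1.25 for Folr1 over the 10 genes.

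**Figure D2:**
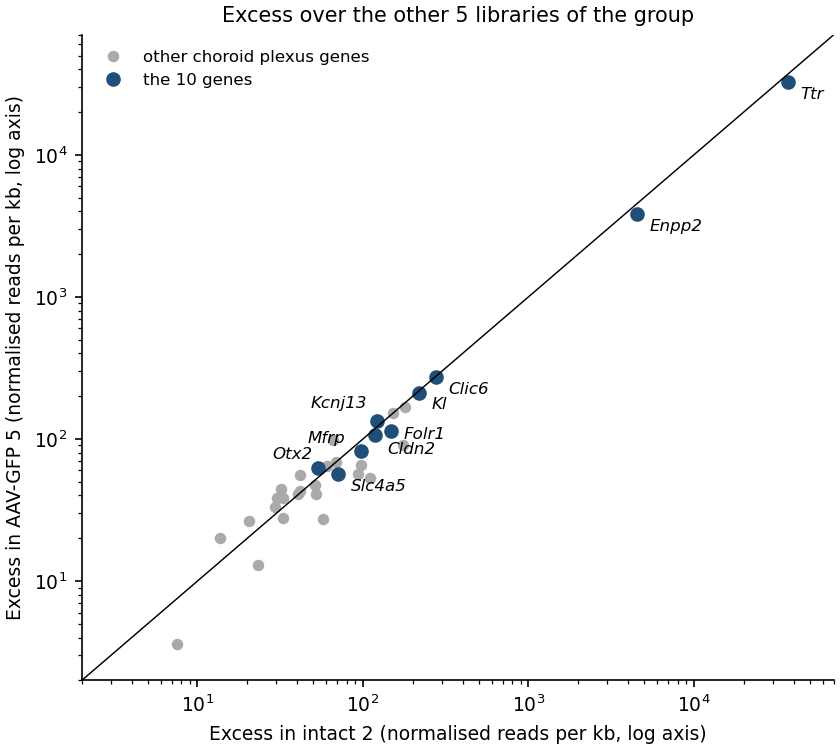
Excess of intact 2 (x axis) and AAV-GFP 5 (y axis) over the median of the other 5 libraries of the group, in normalised reads per kb of exon (log axes), for the 10 genes (blue) and the other choroid plexus genes highest in those 2 libraries (grey). The line marks equal excess, and the 10 genes follow it from 53.6 in intact 2 for Otx2 to 37103 for Ttr.

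A longer list of 40 other choroid plexus genes was read in the same way. It was drawn from general knowledge of the tissue, but with earlier results of these data known. Of its 38 tested genes, 26 had intact 2 and AAV-GFP 5 as their 2 highest libraries, where 1.00% of all genes tested did. That count is a description too, and Kcne2, F5 and Aqp1, given next, were picked after their values were seen. Kcne2, a potassium channel subunit, was 280 in intact 2, 283 in AAV-GFP 5 and 4.23 to 32.9 elsewhere. F5, coagulation factor V, was 1391 and 1309 against 31.3 to 148. Aqp1, the apical water channel, was 283 and 185 against 4.96 to 49.4. Of the 5 most abundant genes of the list, the chloride cotransporter Slc12a2, the anion exchanger Slc4a2, Cab39l and Igfbp2 did not have these 2 libraries on top, while the channel Trpm3 did, with 11914 and 12197 against 7678 to 11670.

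None of the 10 ependymal, 11 leptomeningeal, 6 tested pituitary, 3 tested pineal, 10 oligodendrocyte, 5 thalamic or 8 dopaminergic genes had intact 2 and AAV-GFP 5 as their 2 highest libraries. Over all genes tested the share with these 2 on top was 1.00%, so 0 in such short lists is near it and says little. Foxj1, the master factor of motile cilia in ependyma, was 1036 and 1242 against 848 to 1135. Among pituitary genes, Gh (growth hormone) and Cga were highest in intact 2, at 2244 and 102, and were 28.0 and 1.04 in AAV-GFP 5, below the median of that group's other libraries. Pomc and Lhb were above the median of the group's other libraries in both, 1.84 and 2.64 times in intact 2 and 4.11 and 3.47 times in AAV-GFP 5. Prl was 481 in intact 2, its highest library, and at 0 in AAV-GFP 5, and Tshb lay below those medians in both. The part of any neighbouring tissue in the high values was not tested. In the heatmap of these lists, the 2 libraries stand out as dark columns in the choroid plexus rows.

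AAV-GFP against intact gave no call among the 10 genes in limma, where 1.84% of all genes were called at an adjusted p under 0.05. None of the 10 had an unadjusted p under 0.05, and edgeR and DESeq2 also called 0, although DESeq2 gave no adjusted p for 5 of them (Ttr, Clic6, Folr1, Kl and Cldn2). Of all 19442 genes, edgeR called 361 and DESeq2 920. Fold changes on the log2(value + 1) scale, which understates the change of low genes, ran from -1.16 ± 0.734 (SE) for Cldn2 to 0.26 ± 0.169 for Otx2. Their median was -0.45, and 7 of the 10 lay below 0. Without intact 2 and AAV-GFP 5, 1.28% of all genes and again none of the 10 were called. Cldn2 was then -1.35 ± 0.423 and Kl -0.59 ± 0.157, and Clic6, Kl and Cldn2 had an unadjusted p under 0.05.

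AAV-SIRT3 against intact had 2 of the 10 genes called lower, Mfrp with -2.25 ± 0.779 and Kcnj13 with -1.74 ± 0.591, where 21.7% of all genes were called. This comparison had a part in choosing the genes, so nothing is read from that count. On the recovered reads edgeR called Mfrp and Ttr, and DESeq2 called Mfrp with no adjusted p for 5 of the 10, so neither called Kcnj13. Of all 19442 genes, edgeR called 4086 and DESeq2 4618. The median log2 fold change of the 10 was -1.01, and 9 lay below 0, with Otx2 at 0.21 ± 0.169 as the exception. Markers of neighbouring tissue moved in the same comparison: 4 of 6 tested pituitary genes were called lower (Cga, Prl, Gh and Pomc), with a list median of -2.89, and 5 of 5 thalamic genes were called higher, with a median of 0.75. Their part in the values of the 10 was not tested. Intact 2 is part of these values, and AAV-SIRT3 has no library of its kind. Without intact 2 and AAV-GFP 5, 18.4% of all genes and 2 of the 10 were called lower, then Mfrp with -1.60 ± 0.446 and Kl with -0.71 ± 0.151. Kcnj13 was no longer called, at -1.44 ± 0.529, and Ttr went from -1.71 ± 1.08 to -0.77 ± 0.571. When intact 1, the next highest library for Ttr and Mfrp, was left out as well, Kl alone of the 10 was called. That fit called 2957 of all 19442 genes. Leaving out single libraries also ended both calls of Mfrp and Kcnj13 for intact 2, intact 4 and AAV-SIRT3 2, 3, 4 and 5. It ended that of Mfrp alone for intact 1 and AAV-SIRT3 1, and that of Kcnj13 alone for intact 5 and intact 6.

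AAV-SIRT3 against AAV-GFP, which compares the 2 groups given a virus, gave no call among the 10 genes, where 0.113% of all genes were called. None of the 10 had an unadjusted p under 0.05, and edgeR and DESeq2 called 0, again with no adjusted p from DESeq2 for 5. Over all 19442 genes edgeR called 24 and DESeq2 272. All 10 fold changes lay below 0, from -1.48 ± 0.779 for Mfrp to -0.002 ± 0.734 for Cldn2, with a median of -0.54. Without intact 2 and AAV-GFP 5, 0.0411% of all genes and none of the 10 were called. Only 6 of 10 then lay below 0, the median was -0.14, and Cldn2 turned to 0.75 ± 0.405. The first 2 comparisons share the intact libraries and the last 2 the AAV-SIRT3 libraries, so the fold changes of the 3 are not separate measurements.

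**Figure D3:**
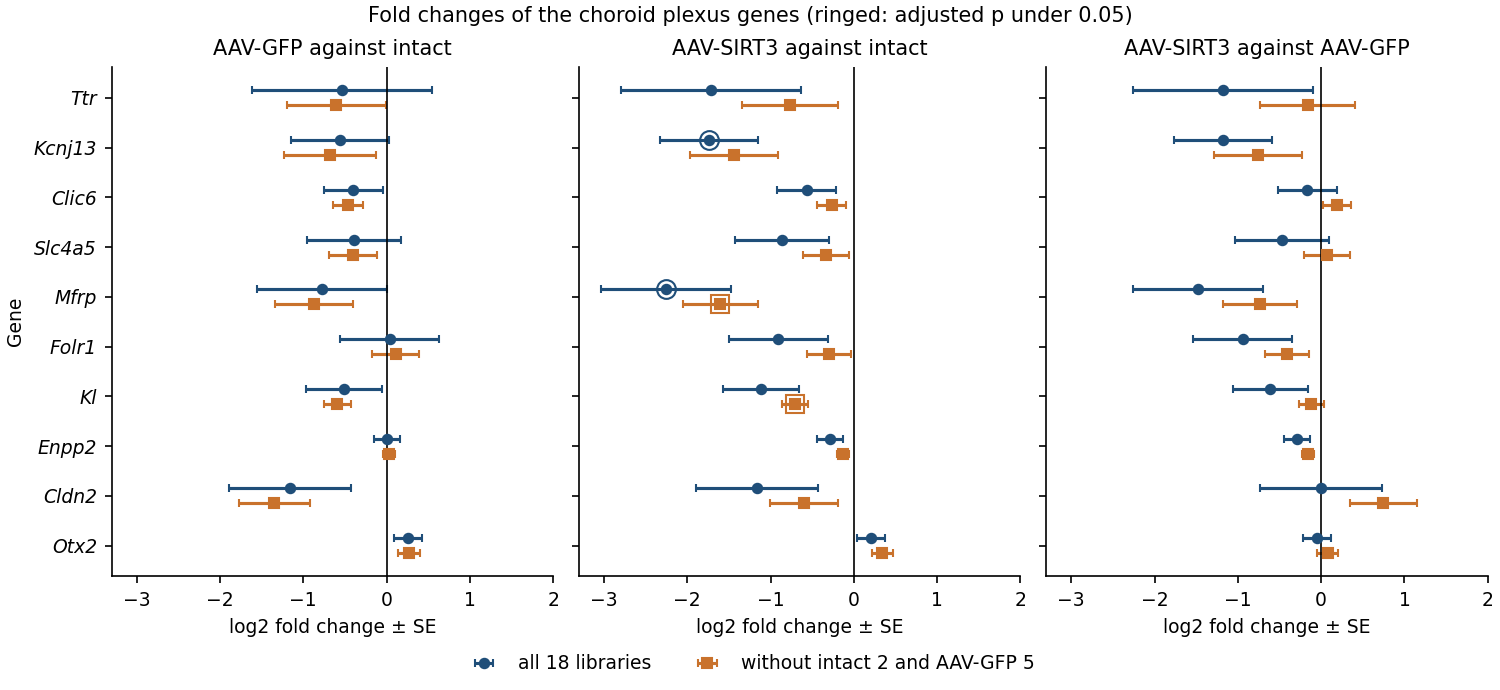
Log2 fold changes of the 10 genes with standard errors in the 3 comparisons, for all 18 libraries (circles) and without intact 2 and AAV-GFP 5 (squares), with called genes ringed. In AAV-SIRT3 against intact, Ttr moves from -1.71 to -0.77 and Mfrp from -2.25 to -1.60 when the 2 libraries are left out.

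Of the other choroid plexus genes, Slc29a4, a monoamine transporter, fell in AAV-GFP against intact by 0.37 ± 0.0527 (limma, adjusted p = 0.00147), as 1 of 38, where 1.84% of all genes were called. In AAV-SIRT3 against intact 6 of 38 fell and 0 rose, a smaller share than the 21.7% called over all genes. They were Trpm3 (-0.28, limma adjusted p = 0.0104), Slc29a4 (-0.20, 0.0108), the organic anion transporter Slc22a8 (-0.57, 0.0226), the prolactin receptor Prlr (-0.52, 0.031), the sulfate transporter Slc13a4 (-0.90, 0.0315) and the lactate transporter Slc16a8 (-0.87, 0.0401). Without intact 2 and AAV-GFP 5, 7 of 38 were called, 5 lower and 2 higher, where 18.4% of all genes were called. Slc16a8 was then not among the 5, and the 2 higher ones were Cab39l and Col9a3. In AAV-SIRT3 against AAV-GFP limma, edgeR and DESeq2 each called 0 of 38, with 5 at an unadjusted limma p under 0.05. Over all genes limma called 0.113%, edgeR 24 of 19442 and DESeq2 272 of 19442. How many of the 38 had no adjusted p from DESeq2 is not reported here. The medians of the 38 were -0.09, -0.31 and -0.24 in the 3 comparisons, against medians over all genes of 0.001, -0.005 and -0.004.

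Outside intact 2 and AAV-GFP 5, Kcnj13 was low in the libraries where fibroblast genes of the leptomeninges, the membranes that cover the brain surface, were low. A score, the mean log2 value of 11 such genes relative to each gene's mean, split the 16 other libraries into 6 with lower scores (-0.91 to -0.38) and 10 with higher ones (-0.04 to 0.74). Kcnj13 was 3.97 to 21.0 in the 6 and 49.8 to 87.9 in the 10, with no overlap. The 6 were 4 AAV-SIRT3 and 2 AAV-GFP libraries and 0 intact ones. The ranges of the other 9 genes overlapped between the 6 and the 10 libraries. The share of all genes without overlap in this split was not counted, so the step is not shown to be particular to Kcnj13. This split was made after seeing the data, and Kcnj13 was itself chosen by values of these libraries, so the step is a description with no test.

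The leptomeningeal genes themselves were lower in AAV-SIRT3 than in intact libraries in 11 of 11 cases, with a median of -0.50. Of the 11, 2 were called, where 21.7% of all genes were, namely Slc6a13 at -0.77 ± 0.228 (limma, adjusted p = 0.0212) and Slc6a20a at -0.64 ± 0.222 (limma, adjusted p = 0.0416), both transporters of the membranes. Without intact 2 and AAV-GFP 5, Slc6a13 alone was called. Their summed level was 9019 to 15970 in intact, 6854 to 14248 in AAV-GFP and 5332 to 13135 in AAV-SIRT3 libraries, and none of the 11 was at 0. Slc13a4 and Slc22a8, counted above among choroid plexus genes, are also known from the leptomeninges. The part of the membranes in the values of Kcnj13 was not tested.

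**Figure D4:**
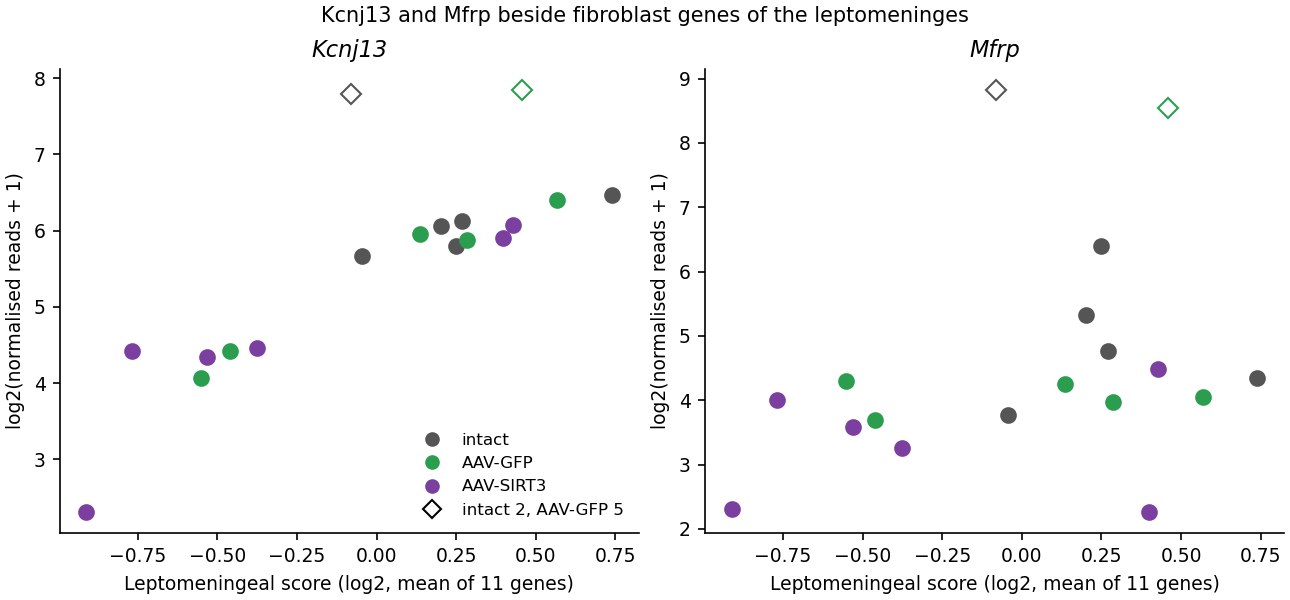
Kcnj13 (left) and Mfrp (right), as log2(normalised reads + 1), against the leptomeningeal score of each library, coloured by group, with diamonds for intact 2 and AAV-GFP 5. For Kcnj13 the 6 libraries with scores from -0.91 to -0.38 lie at 3.97 to 21.0 normalised reads, below the 10 others at 49.8 to 87.9, while Mfrp shows no such step.

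The profile of the 10 genes (their mean log2 value relative to each gene's mean) was compared by rank over all 18 libraries. Among genes on neither choroid plexus list, the closest in rank were Nlrp1c-ps (Spearman's rho 0.86), Mir8094 (0.84) and Edrf1 (0.82). Notch2, Wdr86 and Ptpn14 (0.81 each), Gm37123 (0.80) and Dock6 and Gm44250 (0.79 each) followed. Of these, Wdr86, at 87.0 in intact 2 and 105 in AAV-GFP 5 against 3.97 to 39.8 elsewhere, and Gm44250, at 373 and 503 against 173 to 338, had the same 2 libraries on top. Pearson's r with the profile was 0.81 for Wdr86 and 0.85 for Gm44250. It was only 0.60 for Nlrp1c-ps, 0.66 for Mir8094 and 0.46 for Edrf1, which did not have those 2 libraries on top. The libraries share depth and tissue composition, and the rho and r values are a description. Among the 10 themselves, Mfrp followed the shared profile most closely (rho 0.87) and Otx2 least (0.10). Each of the 10 is part of that profile, so this order compares a part with the whole.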

How the data were processed

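RNA-seq values of 18 mouse substantia nigra libraries, 6 in each of 3 groups taken from the sample titles, came from 1 deposited table, whose name says that HTSeq read counts were normalised by DESeq2. The table holds a signal for each gene, made by the authors from reads aligned with HISAT2 2.1.0 to mm10 and normalised with DESeq2 1.34.0, per the submitters' processing notes. Read trimming, annotation and strand setting are not given in the sources used here. Every library's values were whole reads over a common size factor: 100% of values above 0 gave whole numbers within 0.01 reads. For intact 4 and AAV-SIRT3 4, whose size factors are near 1, these steps prove less. A row naming no gene (at most 0.00029% of reads) was left out, and 0 columns were left without a sample. Library names follow the titles, and the design text gives 6 mice per group, so p-values measure the spread between mice. Replicates differed by more than sampling noise (chi-square per degree of freedom 8.27 to 36.6). Reads carry no molecular identifiers, so depth speaks for counting error only.

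Values were tested as log2(value + 1) with limma 3.58.1 in R 4.3.3, with a trend in the prior variance, 1 model of the 3 groups, 15 residual degrees of freedom and p-values adjusted by Benjamini-Hochberg over 19442 genes, called at 0.05. Alternatives were TMM factors, pseudocounts of 0.5 and 10, other filters on low values, count tests on the recovered whole reads (edgeR 4.0.16, DESeq2 1.42.0), fits of 2 groups, a replicate block, robust moderation and leaving out each library. Leaving out intact 2 and AAV-GFP 5, with or without intact 1, was added after seeing the data, as was the split of libraries by leptomeningeal score. The 10 genes and all lists were chosen with earlier results of these data known. The procedure was tested on simulated counts. These had the same dispersion for all genes and no library that stood apart, so they do not show how it behaves for the 10 genes.

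Genes named besides the 10 are the 5 most abundant of the other choroid plexus genes and those past the threshold, the 10 genes most like the shared profile (1 of them is not reported here), and from each further list the 2 most abundant or those a result turns on; Kcne2, F5, Aqp1, Cab39l and Col9a3 were also picked after their values were seen. Positions and exon lengths come from GENCODE M21 (GRCm38), and promoters from RefSeq (GRCm38.p6).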

Additional observations from a re-analysis of the deposited data

Results flagged for a closer look

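In 20 of 30 groups of 6 libraries, 1 library of a choroid plexus gene lay far from the other 5, with a gap to its nearest neighbour above Dixon's critical share of the group's range. For normally spread values chance gives this in about 1 of 20 groups, and whether that rate holds for these normalised reads was not tested. Since the genes were chosen by these values and share their libraries, the 20 are not separate results.

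Intact 2 was the far library for all 10 genes, with normalised reads of 44471 for Ttr, 221 for Kcnj13, 1507 for Clic6, 452 for Slc4a5, 450 for Mfrp, 371 for Folr1, 2441 for Kl, 52523 for Enpp2, 438 for Cldn2 and 526 for Otx2. AAV-GFP 5 was the far library for 9 genes, with 39158 for Ttr, 228 for Kcnj13, 1404 for Clic6, 364 for Slc4a5, 370 for Mfrp, 296 for Folr1, 2290 for Kl, 48085 for Enpp2 and 370 for Cldn2. Otx2 in AAV-GFP 5, at 611, was within reach of its next library at 459. In the AAV-SIRT3 group the only far value was a low one, Cldn2 in AAV-SIRT3 4 with 7.94 against 29.0 in the next library.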

How the results depend on the processing

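Counts of the 10 genes called in AAV-SIRT3 against intact were 2 in the reported fit. They were 1 with a pseudocount of 10, 0 with all genes above 0 tested, 1 with DESeq2, 0 with robust moderation, 1 without intact 1, intact 2 and AAV-GFP 5, and 0 to 3 with 1 library left out. Over all genes tested in that comparison, the reported fit called 4214 of 19442. A pseudocount of 10 gave 4206, DESeq2 4618 and robust moderation 4161. Without intact 1, intact 2 and AAV-GFP 5 it was 2957, and with 1 library left out 3279 to 4633. With all genes above 0 tested, 3170 of 38539 were called. The other choroid plexus genes called there were 6, against 3 with all genes above 0 tested, 3 with robust moderation and 3 to 7 with 1 library left out. In the other 2 comparisons every alternative run kept both counts, at 0 for the 10 genes. Mfrp and Kcnj13 each lost the call in 8 of 18 fits that left out 1 library, and Ttr was called by edgeR alone (-3.78). Kl, not called in the reported fit, was called beside Mfrp and Kcnj13 in the fit of the 2 groups compared. That fit called 4228 of all 19442 genes. Kl was also called without AAV-GFP 5. Directions of uncalled values turned in these cases. Without intact 2 and AAV-GFP 5, with or without intact 1, AAV-SIRT3 against AAV-GFP was 0.19 for Clic6, 0.068 for Slc4a5, 0.75 for Cldn2 and 0.078 for Otx2; Cldn2 was also 0.001 with TMM factors and 0.009 with a pseudocount of 0.5. In AAV-GFP against intact, Ttr was 0.015 without intact 1, intact 2 and AAV-GFP 5, Folr1 -0.21 with edgeR, and Enpp2 -0.022 with edgeR and -0.017 with DESeq2. With 1 library left out, ranges were -1.55 to 0.41 for Ttr, -0.93 to 0.14 for Slc4a5, -0.49 to 0.65 for Folr1 and -0.13 to 0.17 for Enpp2 in that comparison. In AAV-SIRT3 against AAV-GFP they were -0.31 to 0.19 for Clic6, -0.63 to 0.068 for Slc4a5, -0.40 to 0.75 for Cldn2 and -0.13 to 0.078 for Otx2. The cause was not tested. The replicate numbers do not pair the libraries (correlation of deviations of same-numbered libraries -0.10 to 0.18, over 0.1 in 1 of 18 pairs). With a replicate block 2 of the 10 and 5 of the other choroid plexus genes were called in AAV-SIRT3 against intact. Of all 19442 genes 3923 were called in that fit. Depth limits Mfrp, Folr1, Kcnj13 and Cldn2 most, whose lowest libraries hold 4, 16, 4 and 7 reads.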
